A study of Mus musculus with 9 samples.

Results

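*Csf1r*, *Adgre1*, *Cd68*, *Aif1*, *Cd14*, *Ptprc*, *Laptm5*, *Lgals3*, *Csf2ra* and *Csf2rb* are transcribed in macrophages of most tissues and are often read as a sign that a sorted population is made of macrophages. These 10 general macrophage genes were taken by name, through their Ensembl identifiers, and not by a threshold on their values. All 10 had a row among the 13708 genes of the normalized count table, and all 10 passed the filter on low values (10 or more normalized counts in 4 or more samples), which 13594 genes passed. The question put to them was whether they hold their level in fetal liver (FL) macrophages in which *Xpr1* was targeted while genes of liver macrophage identity fall.

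Macrophages were sorted from E15.5 mouse livers and their RNA was measured by bulk RNA-seq. In 5 *Mrc1Cre Xpr1fl/fl* samples, Cre recombinase made from the *Mrc1* locus could delete the loxP-flanked exon 2 of *Xpr1*, which encodes the phosphate exporter XPR1. The 4 *Xpr1fl/fl* samples served as controls, so both groups carried the floxed *Xpr1* alleles and differed by the Cre insertion as well as by the deletion. *Mrc1* encodes CD206, which sinusoidal endothelial cells of the liver make besides most FL macrophages, so that the Cre was not limited to macrophages. The sort took CD45+ F4/80+ CD11blow cells, with Tim4hi and Tim4lo cells together. CD45 is the product of *Ptprc* and F4/80 that of *Adgre1*, so the presence of these 2 transcripts follows from the sort and is no finding. The labels do not say whether the samples came from separate embryos or litters, and p-values therefore measure the spread between these samples only.

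Macrophages depend on cytokines of the CSF family. CSF1R is a receptor tyrosine kinase for CSF1 and IL-34 and keeps tissue macrophages alive, whereas CSF2RA and CSF2RB form the receptor for GM-CSF, with CSF2RB as the signalling chain that IL-3 and IL-5 receptors share. CD14 hands lipopolysaccharide to TLR4 and its partner MD-2. CD45 is the phosphatase that switches Src family kinases in leukocytes, F4/80 is an adhesion G protein-coupled receptor, CD68 is a lysosomal membrane glycoprotein, LAPTM5 is a lysosomal membrane protein of blood cells, IBA1 (the product of *Aif1*) binds actin, and galectin-3 (the product of *Lgals3*) binds galactose-containing sugars. Kupffer cells (KCs), the macrophages of the liver, carry in addition an identity programme that includes *Vsig4*, a complement receptor, *Clec4f*, a lectin of KCs, *Timd4*, which encodes the phosphatidylserine receptor Tim4, and *Cdh5*, which encodes VE-cadherin.

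Promoters are shown for *Ptprc* and *Aif1*, the members that differed most in opposite directions between the genotypes. The table lists 2 starts for *Ptprc*, and the first listed was taken. Each line holds the 250 bases before the start of transcription in RefSeq (GRCm38.p6), at chr1:138175306-138175555 on the minus strand for *Ptprc* and at chr17:35176053-35176302 on the minus strand for *Aif1*, read 5′ to 3′ along the gene. Capitals mark GAGGAA, the core of many binding sites of the myeloid factor PU.1, or its reverse complement TTCCTC.
Ptprc: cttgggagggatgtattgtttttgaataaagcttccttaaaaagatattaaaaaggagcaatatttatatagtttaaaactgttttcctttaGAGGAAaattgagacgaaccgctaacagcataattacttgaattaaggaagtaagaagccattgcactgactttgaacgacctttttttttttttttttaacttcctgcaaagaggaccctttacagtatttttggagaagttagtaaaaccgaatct
Aif1: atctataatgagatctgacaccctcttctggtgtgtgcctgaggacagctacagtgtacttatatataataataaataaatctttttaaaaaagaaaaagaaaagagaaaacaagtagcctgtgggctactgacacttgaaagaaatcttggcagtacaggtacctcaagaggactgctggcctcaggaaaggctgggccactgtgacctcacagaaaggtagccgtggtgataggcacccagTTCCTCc
The 6 letters were searched on both strands of this window and stood once in each of both promoters. Across the table, 23.3% of 32851 promoters held them. Of the 6 members with an entry, 5 held them (*Cd68*, *Aif1*, *Ptprc*, *Laptm5* and *Csf2ra*), and *Lgals3* did not. A member that rose and the one that fell both held GAGGAA, and another member that rose did not. *Csf1r*, *Adgre1*, *Cd14* and *Csf2rb* had no entry.

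The sample totals lay between 26942921 and 28309443 normalized counts and were set by the authors' normalization, so the absolute depth is unknown. Relative depth, estimated from the spacing of low values, was 0.833 to 1.11 in the *Mrc1Cre Xpr1fl/fl* samples and 0.847 to 1.17 in the controls. *Xpr1* itself lay between 1073.7 and 1285.3 normalized counts in the 5 *Mrc1Cre Xpr1fl/fl* samples and between 1780.9 and 2239.2 in the 4 controls, and it fell by 0.77 on the log2 scale (SE 0.08, adjusted p = 4.13e-05). Here and throughout, genotypes were compared with limma on log2(normalized count + 1), a positive change is a higher level in *Mrc1Cre Xpr1fl/fl*, and the Benjamini-Hochberg adjustment of p-values covered all 13594 genes with a test. The table's column names begin with 1 of 3 dates, whose meaning is not given in the sources used here. *Mrc1Cre Xpr1fl/fl* sample 5 and control samples 1 to 3 shared the earliest date, control sample 4 had the middle one, and *Mrc1Cre Xpr1fl/fl* samples 1 to 4 had the latest. For *Mrc1Cre Xpr1fl/fl* samples 1 to 4 and control sample 4 the date and the genotype therefore cannot be told apart, and a fit with the date as a term compares in effect sample 5 with control samples 1 to 3.

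In the controls, normalized counts per kilobase of exon ranked *Adgre1* first (13066.8 ± 1348.9, SD, n = 4), followed by *Cd68* (10699.7 ± 1447.1), *Csf1r* (10474.5 ± 714.4) and *Laptm5* (8839.0 ± 615.5). *Lgals3* (3914.9 ± 354.6) came next, ahead of *Csf2rb* (1550.6 ± 145.5), *Aif1* (1364.6 ± 96.8), *Csf2ra* (1132.2 ± 73.1) and *Cd14* (1117.0 ± 213.2). *Ptprc* was last at 452.8 ± 28.3. The ranges of *Cd68* and *Csf1r*, of *Csf2rb* and *Aif1*, and of *Csf2ra* and *Cd14* overlapped between these neighbours, and the other neighbours in the order did not overlap. All members were abundant transcripts, with control means between the 76.3 percentile (*Cd14*) and the 99.8 percentile (*Csf1r*) of all genes in normalized counts.

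In the fit with genotype only, most of the general macrophage genes held their level within 1.5-fold, but they did not all stay the same. Of the 10 members, 3 were higher (*Ptprc*, *Csf2rb* and *Lgals3*), 1 was lower (*Aif1*) and 6 were not called at an adjusted p of 0.05. Of all genes tested, 21.5% were called higher and 21.6% lower, so the members were called about as often as other genes. In the fit with genotype only, the 95% confidence interval of the change lay wholly within 1.5-fold (0.58 on the log2 scale) for 9 members. *Ptprc* was the exception, and of all genes tested 58.0% met this criterion. Values of the genotypes did not overlap for 4 members, the same 4 that were called, against 34.1% of all genes tested. The median change of the members was 0.11 on the log2 scale, and that of all genes tested was 0.00. With the date as a term, the changes of the members ran from -0.17 (*Aif1*) to 0.56 (*Ptprc*). Intervals of that fit are not given here, so steadiness within 1.5-fold is not shown for it. In the same samples, erythroid markers summed to 0.378% to 1.14% of the normalized counts in *Mrc1Cre Xpr1fl/fl* and to 1.56% to 2.38% in the controls, and their part in these changes was not tested.

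**Figure D1:**
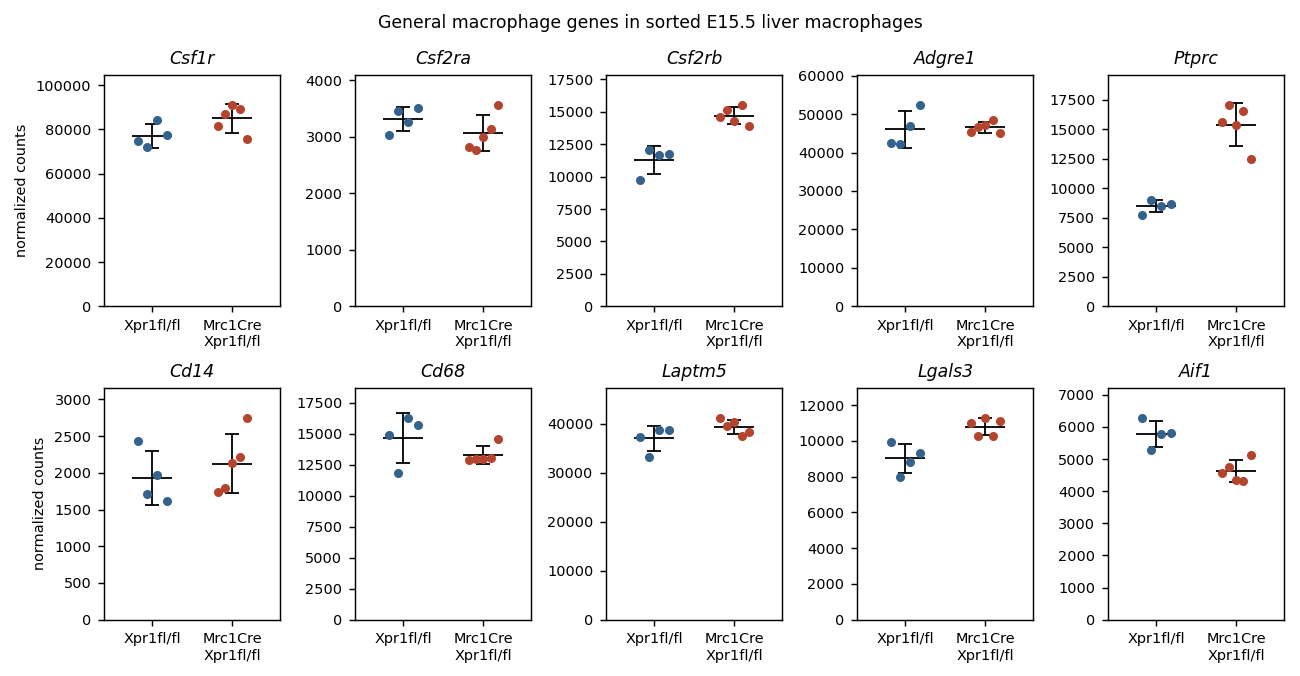
Normalized counts (y axis, from 0) of the 10 general macrophage genes in the 4 *Xpr1fl/fl* samples (blue) and the 5 *Mrc1Cre Xpr1fl/fl* samples (red), 1 panel a gene. Points are samples and bars are the mean with its SD. The genotypes separate without overlap for *Csf2rb*, *Ptprc* and *Lgals3*, which are higher in *Mrc1Cre Xpr1fl/fl*, and for *Aif1*, which is lower.

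Among the cytokine receptors, *Csf1r* and *Csf2ra* were not called and *Csf2rb* rose. *Csf1r* (ENSMUSG00000024621, GRCm39 chr18:61229714-61266535, plus strand) had 81545.0, 87209.1, 91177.9, 89443.5 and 75601.3 normalized counts in *Mrc1Cre Xpr1fl/fl* samples 1 to 5 and 74697.7, 71872.1, 84134.9 and 77705.2 in controls 1 to 4. The groups overlapped, with *Mrc1Cre Xpr1fl/fl* sample 5 inside the range of the controls. The means were 84995.4 ± 6384.8 (SD, n = 5) and 77102.5 ± 5258.6 (SD, n = 4), a change of 0.14 (SE 0.08, interval -0.02 to 0.30, adjusted p = 0.155). After quantile normalization it was 0.33 and was called (adjusted p = 0.0161), and with the date in the fit it was -0.02 (adjusted p = 0.929). Exons of *Csf1r* overlap those of *Hmgxb3* on the opposite strand over 1461 bases, 19.8% of the exon length of *Csf1r*. *Hmgxb3* had 1121.7 ± 57.4 and 833.1 ± 95.3 normalized counts, far below *Csf1r*, and was called higher (0.43, SE 0.08, adjusted p = 0.00153).

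*Csf2ra* (ENSMUSG00000059326, chr19:61212395-61216892, minus strand), the ligand-specific chain of the GM-CSF receptor, had 2824.0, 2773.3, 2988.5, 3142.6 and 3565.8 normalized counts in *Mrc1Cre Xpr1fl/fl* and 3033.6, 3454.9, 3253.5 and 3500.7 in the controls. The values overlapped, and sample 5 stood above every control. The change was -0.12 (SE 0.08, interval -0.29 to 0.05, adjusted p = 0.237). After quantile normalization it was -0.23 and was called (adjusted p = 0.0413). Without *Mrc1Cre Xpr1fl/fl* sample 5 it was -0.17 and was called (adjusted p = 0.04). With the date in the fit it was 0.14 (adjusted p = 0.427).

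*Csf2rb* (ENSMUSG00000071713, chr15:78209952-78238047, plus strand), the signalling chain, had 14620.6, 15165.7, 14275.3, 15534.4 and 13881.8 normalized counts in *Mrc1Cre Xpr1fl/fl* and 9713.3, 12014.6, 11632.0 and 11775.3 in the controls. Every *Mrc1Cre Xpr1fl/fl* sample was above every control. The change was 0.38 (SE 0.07, interval 0.24 to 0.53, adjusted p = 0.001), or 1.31-fold, and with the date as a term it was 0.33 and not called (adjusted p = 0.107). *Csf2rb2*, a closely related neighbour, encodes an IL-3-specific beta chain and shares 18.82% of the 31-base words of the *Csf2rb* transcripts, so reads could have been split between them. *Csf2rb2* had 5374.5 ± 504.3 and 4472.9 ± 424.0 normalized counts and was also called higher (0.26, SE 0.08, adjusted p = 0.0219). That call was lost with the date as a term (0.10, adjusted p = 0.673), after scaling to the 75th percentile (0.19, adjusted p = 0.071), after quantile normalization (0.15, adjusted p = 0.123) and without *Mrc1Cre Xpr1fl/fl* sample 3 or control 1 (adjusted p up to 0.0623). The sum of both genes, computed after the overlap was seen, ran from 18601.1 to 21221.8 in *Mrc1Cre Xpr1fl/fl* and from 13583.3 to 16875.6 in the controls (log2 difference 0.35, two-sided exact permutation test, p = 0.00794, the smallest p this design allows).

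Of the proteins at the cell surface, the transcripts of F4/80 and CD14 had no called change and that of CD45 rose. *Adgre1* (ENSMUSG00000004730, chr17:57665573-57790527, plus strand) had 45442.1, 46618.6, 47215.3, 48554.4 and 45074.4 normalized counts in *Mrc1Cre Xpr1fl/fl* and 42568.5, 42249.8, 46795.4 and 52418.8 in the controls. All values of *Mrc1Cre Xpr1fl/fl* lay inside the range of the controls. It had the smallest change of the members, 0.02 (SE 0.07, interval -0.13 to 0.18, adjusted p = 0.816), and its sign was negative after scaling to the 75th percentile (-0.06). Its coefficient of variation was 3.01% in *Mrc1Cre Xpr1fl/fl* and 10.3% in the controls. The cells were gated on F4/80, and the part of that gate in the steadiness of its transcript was not tested.

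*Ptprc* (ENSMUSG00000026395, chr1:137990599-138103446, minus strand) showed the largest difference. Its normalized counts were 15587.2, 17075.4, 15335.4, 16559.1 and 12453.6 in *Mrc1Cre Xpr1fl/fl* and 7769.4, 9033.5, 8529.0 and 8656.1 in the controls. The lowest *Mrc1Cre Xpr1fl/fl* value, that of sample 5, was still above the highest control. The means of 15402.1 ± 1793.8 and 8497.0 ± 530.3 differed by 0.85 (SE 0.09, interval 0.66 to 1.04, adjusted p = 4.04e-05), or 1.8-fold (interval 1.58 to 2.06). Per kilobase of exon, *Ptprc* stood at 820.8 ± 95.6 in *Mrc1Cre Xpr1fl/fl*, still below the 1046.1 ± 108.9 of *Csf2ra* there. The rise was 0.56 with the date as a term (adjusted p = 0.0108) and between 0.81 and 0.93 when any 1 sample was left out. The cells were gated as CD45+, and the part of that gate in the level of *Ptprc* was not tested.

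*Cd14* (ENSMUSG00000051439, chr18:36858120-36859851, minus strand) was the most variable member. It had 1733.7, 1798.1, 2139.7, 2210.6 and 2746.4 normalized counts in *Mrc1Cre Xpr1fl/fl* and 2438.0, 1712.2, 1976.7 and 1611.7 in the controls. The groups overlapped, and the highest values were those of sample 5 and control 1, which shared a date. Its coefficients of variation were 19.0% and 19.1%, and the change was 0.13 (SE 0.15, interval -0.18 to 0.45, adjusted p = 0.483). With the date in the fit the change was 0.44 and was not called. Without both *Mrc1Cre Xpr1fl/fl* sample 5 and control 4, the change was -0.04.

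Of the 4 intracellular or secreted proteins, the lysosomal pair *Cd68* and *Laptm5* was not called, *Lgals3* rose and *Aif1* fell. *Cd68* (ENSMUSG00000018774, chr11:69555037-69557067, minus strand) had 12892.7, 12994.8, 12963.8, 13042.6 and 14590.4 normalized counts in *Mrc1Cre Xpr1fl/fl* and 14878.1, 11799.3, 16255.8 and 15658.6 in the controls. The 4 *Mrc1Cre Xpr1fl/fl* samples of the latest date lay close together, below all controls but control 2. The change was -0.13 (SE 0.09, interval -0.32 to 0.06, adjusted p = 0.246). Without control 2 it was -0.23 and was called (adjusted p = 0.0109). With the date in the fit it was 0.04.

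*Laptm5* (ENSMUSG00000028581, chr4:130638161-130663452, plus strand) had 41112.8, 39539.9, 40215.0, 37505.3 and 38227.7 normalized counts in *Mrc1Cre Xpr1fl/fl* and 37254.2, 33259.6, 38778.8 and 38636.5 in the controls. The groups overlapped. The change was 0.09 (SE 0.06, interval -0.04 to 0.22, adjusted p = 0.251), and its interval was the narrowest of the members. Its coefficient of variation was 3.72% in *Mrc1Cre Xpr1fl/fl* and 6.96% in the controls.

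*Lgals3* (ENSMUSG00000050335, chr14:47605208-47623624, plus strand) had 10994.1, 10261.3, 11281.4, 10291.6 and 11125.0 normalized counts in *Mrc1Cre Xpr1fl/fl* and 9933.1, 7998.9, 8844.3 and 9334.4 in the controls. All *Mrc1Cre Xpr1fl/fl* samples were above all controls, by a small margin against control 1. The change was 0.26 (SE 0.06, interval 0.12 to 0.40, adjusted p = 0.00735), or 1.2-fold. With the date as a term the difference was 0.32 and was not called (adjusted p = 0.108).

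*Aif1* (ENSMUSG00000024397, chr17:35387384-35395053, minus strand) was the only member that fell. It had 4560.7, 4764.4, 4344.8, 4316.0 and 5126.5 normalized counts in *Mrc1Cre Xpr1fl/fl* and 6274.4, 5270.6, 5771.3 and 5805.5 in the controls. The groups did not overlap, though sample 5 came near control 2. The change was -0.32 (SE 0.07, interval -0.47 to -0.18, adjusted p = 0.00251), or 0.8-fold, and with the date as a term it was -0.17 and not called (adjusted p = 0.341). Of the 31-base words of its transcripts, 8.08% occur in other genes, most often in *St13* (2.51%), so a part of its reads may not be unique to it.

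Within the shared date, *Mrc1Cre Xpr1fl/fl* sample 5 lay above control samples 1 to 3 for *Ptprc*, *Csf2rb*, *Lgals3*, *Cd14* and *Csf2ra*, below them for *Aif1*, and inside their range for *Csf1r*, *Adgre1*, *Cd68* and *Laptm5*. With the date as a term, *Ptprc* alone was called higher and no member lower, while 4.24% of all genes tested were called higher and 4.54% lower. At an unadjusted p of 0.05, limma with the date called 4 of the 10 members higher (*Ptprc*, *Csf2rb*, *Lgals3* and *Cd14*) and 0 lower, against 12.8% of all genes tested higher and 13.1% lower. Scaling to the 75th percentile moved the median of all genes to -0.07 and that of the members to 0.03. Under that scaling the same 3 members were higher and *Aif1* was lower, against 14.7% of all genes higher and 27.3% lower.

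**Figure D2:**
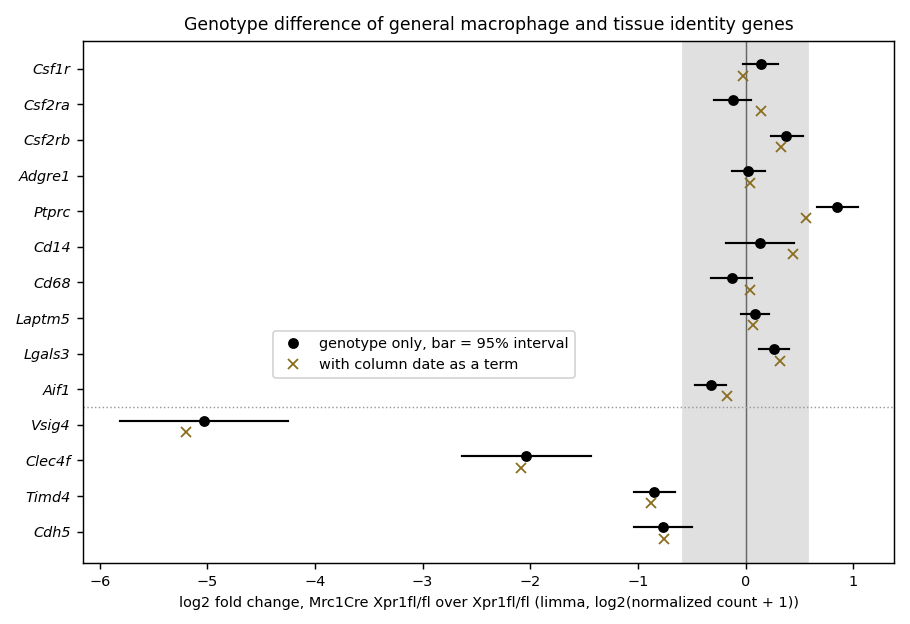
Log2 fold change (x axis, *Mrc1Cre Xpr1fl/fl* over *Xpr1fl/fl*) of the 10 general macrophage genes (above the dotted line) and 4 liver macrophage identity genes (below it). Black points and bars are the limma estimate with genotype only and its 95% interval. Crosses are the estimate with the column date as a term, drawn without an interval. The grey band spans 0.58 either way, or 1.5-fold. Only the interval of *Ptprc* leaves the band among the general genes, while the points of all 4 identity genes lie to the left of it. The interval of *Cdh5* (-1.04 to -0.5) reaches into the band.

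Each of the 4 identity genes fell by more than *Aif1*, the general macrophage gene that fell. *Vsig4* had 13.3 ± 4.6 normalized counts in *Mrc1Cre Xpr1fl/fl* and 485.5 ± 231.8 in the controls (log2 change -5.03, SE 0.35, adjusted p = 6.21e-06), and *Clec4f* had 1857.4 ± 727.8 and 7408.9 ± 1989.8 (-2.04, SE 0.27, adjusted p = 0.000184). *Timd4* changed by -0.85 (SE 0.09, adjusted p = 4.23e-05) and *Cdh5* by -0.77 (SE 0.12, adjusted p = 0.00055). The 4 genes were taken because the study names them for these samples, so that their direction is not independent evidence, and the sort included Tim4lo cells.

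To ask whether they fell against the general genes themselves, the log2 ratio of each identity gene to each member was taken in every sample, which nearly cancels the scaling of the sample. Of the 40 ratios, 39 were lower in *Mrc1Cre Xpr1fl/fl* by a two-sided exact permutation test adjusted over the 40, with no overlap between the genotypes in those 39. Of these 39, 38 had a raw p of 0.00794, the smallest that 5 samples against 4 can give (adjusted p = 0.00835), and *Timd4* against *Aif1* had p = 0.0159 in the same exact permutation test (adjusted p = 0.0163). Against *Adgre1*, the ratio of *Vsig4* was lower by 5.05 on the log2 scale, with mean log2 ratios of -11.74 ± 0.50 in *Mrc1Cre Xpr1fl/fl* and -6.69 ± 0.64 in the controls. Against the same gene, *Timd4* had log2 ratios of -2.47 ± 0.12 and -1.59 ± 0.06. The difference of each identity gene was largest against *Ptprc* and smallest against *Aif1*, the members that rose most and fell. Across the members it ran from -5.88 to -4.71 for *Vsig4*, from -2.89 to -1.72 for *Clec4f*, from -1.70 to -0.53 for *Timd4* and from -1.62 to -0.45 for *Cdh5*. The exception was *Cdh5* against *Aif1*, at -0.45 with overlapping values (two-sided exact permutation test, p = 0.0635, adjusted p = 0.0635). In the samples that shared a date, sample 5 was below control samples 1 to 3 in 40 of the 40 ratios, which rests on 1 *Mrc1Cre Xpr1fl/fl* sample. The 40 ratios reuse the same identity genes and the same members, so they are not independent of each other. The identity genes were chosen because the study reported their fall in these samples. Lower ratios against members of little change followed from that choice and are no independent evidence.

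**Figure D3:**
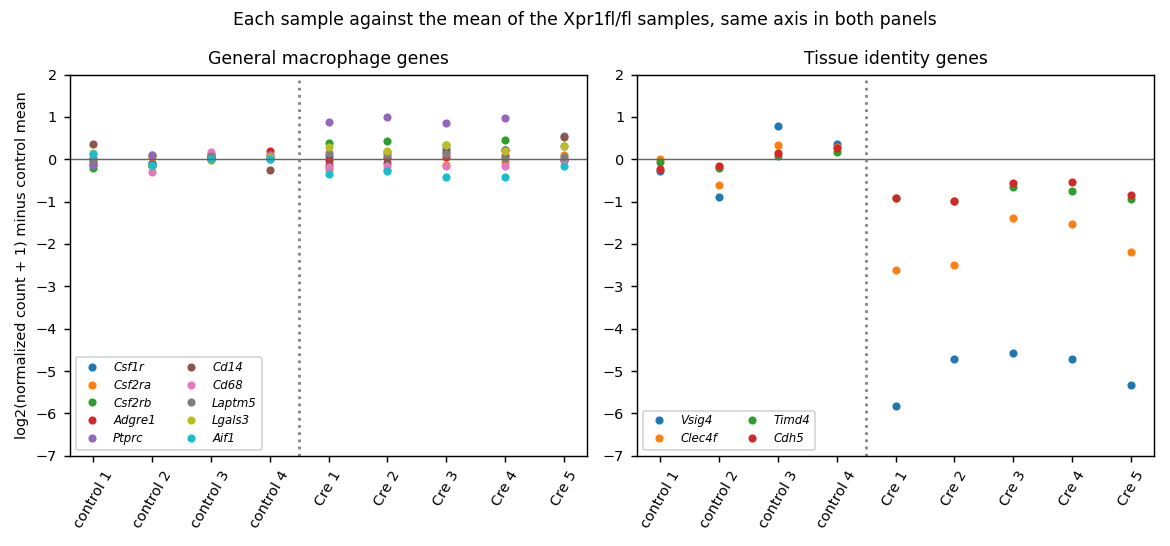
Log2(normalized count + 1) of each sample minus the mean of the 4 *Xpr1fl/fl* samples (y axis, the same range in both panels) for the 10 general macrophage genes (left) and 4 identity genes (right). Points are genes in a sample, with controls left of the dotted line. The general genes stay within -0.42 and 1.01 of the control mean in the *Mrc1Cre Xpr1fl/fl* samples, with *Ptprc* at the top, while the identity genes lie between -5.83 and -0.55 there.

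The wider identity list, which holds these 4 genes, had 26 genes tested, of which 14 fell and 6 rose, with a median change of -0.59. Of all genes tested, 21.6% fell and 21.5% rose. With the date as a term these shares were 4.54% and 4.24%, and after scaling to the 75th percentile 27.3% and 14.7%. The same shares stand beside the lists that follow. *Siglec1*, which encodes the sialic acid receptor CD169, rose the most of the list (0.58, SE 0.15, adjusted p = 0.00858), though its values overlapped between the genotypes. *Hmox1*, which encodes heme oxygenase 1 and was the most abundant gene of the list, was lower by 0.42 on the log2 scale (SE 0.14, adjusted p = 0.0359), a call lost on leaving out any of 6 samples. With the date as a term, 9 genes of the list were lower and 2 higher (*Nr1h3*, which encodes the liver X receptor alpha, and *Spic*, a factor of iron-recycling macrophages), and after scaling to the 75th percentile 17 were lower and 3 higher.

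Genes that act with the cytokine receptors were read next. The CSF receptor axis held 23 genes with a value (ligands, sister receptors and the kinases, adaptors and phosphatases behind them). Of these 23, 14 rose, 1 fell and 8 were not called, with a median of 0.30. Of all genes tested, 21.5% rose and 21.6% fell. After scaling to the 75th percentile 10 of the 23 rose and 1 fell, against 14.7% and 27.3% of all genes. *Csf1*, the ligand of CSF1R, lay between 148.3 and 195.8 normalized counts in the controls and between 180.0 and 283.8 in *Mrc1Cre Xpr1fl/fl*, and was called higher (0.47, SE 0.15, adjusted p = 0.0224) although the groups overlapped. The call was lost with the date as a term (adjusted p = 0.23), after scaling to the 75th percentile (adjusted p = 0.0515) and without *Mrc1Cre Xpr1fl/fl* sample 2, control 2 or control 4 (adjusted p up to 0.06). *Lyn*, a Src family kinase and the most abundant gene of this list, had 22558.9 ± 504.0 and 18187.4 ± 321.5 normalized counts and rose by 0.31 (SE 0.04, adjusted p = 0.000232). *Fgr*, another Src family kinase, rose the most, by 0.80 (SE 0.08, adjusted p = 4.45e-05), and *Ptpn6*, which encodes the phosphatase SHP-1, was among the 14. *Socs2*, a feedback inhibitor of JAK-STAT signalling, had the only fall (-1.48, SE 0.22, adjusted p = 0.000321), from 392.5 ± 92.8 to 141.7 ± 39.6 normalized counts. With the date as a term, 4 genes were higher, among them *Lyn*, *Fgr* and *Ptpn6*, and 0 lower, or 1 lower (*Socs2*) at an unadjusted p of 0.05. *Il34* and *Csf2*, the other ligands of the 2 receptors, had no row in the normalized count table and could not be analysed.

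Around CD14, 9 of the 16 genes of the TLR4 axis rose, 0 fell by limma, also at an unadjusted p of 0.05, and 7 were not called, with a median of 0.22. Of all genes tested, 21.5% rose and 21.6% fell. Scaling to the 75th percentile left 7 of the 16 higher and made 1, *Lbp*, lower (-0.35, adjusted p = 0.0436). Under that scaling 14.7% of all genes were higher and 27.3% lower. Beside *Cd14*, which was not called, its partner *Tlr4* rose from 5429.2 ± 569.1 to 7255.7 ± 707.3 normalized counts (0.42, SE 0.09, adjusted p = 0.00281), with sample 5 overlapping the controls. With the date as a term, the change of *Tlr4* was 0.23 and that of *Cd14* was 0.44, and neither was called. *Ly96*, which encodes MD-2, was at 504.1 ± 43.0 and 474.8 ± 12.4 (0.08, SE 0.08, adjusted p = 0.427). *Irak3*, a kinase-like protein that restrains Toll-like receptor signalling, rose the most, by 1.00 (SE 0.14, adjusted p = 0.000228), with no overlap. *Lbp*, which encodes the lipopolysaccharide-binding protein, had the lowest change, -0.27 (SE 0.13, adjusted p = 0.105). With the date as a term, 4 genes were higher (*Irak3*, *Tlr1*, *Cd180* and *Myd88*) and 0 lower, also at an unadjusted p of 0.05.

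A further 30 genes of the macrophage lineage were split. Of these, 11 rose, 6 fell and 13 were not called, with a median of 0.12, close to the 0.11 of the members. Of all genes tested, 21.5% rose and 21.6% fell. *Sirpa*, the most abundant of the 30 and the receptor for CD47, rose by 0.30 (SE 0.06, adjusted p = 0.00153). *Cx3cr1*, the fractalkine receptor, rose by 0.52 (SE 0.11, adjusted p = 0.00332). *Lyz2*, which encodes lysozyme, fell the most, from 34246.8 ± 5680.6 to 15830.3 ± 2520.7 normalized counts (-1.11, SE 0.13, adjusted p = 7.36e-05). With the date as a term, 3 were higher (*Itgb2*, *Coro1a* and *Runx1*) and 3 lower (*Lyz2*, *Cebpa* and *C1qa*). In the fit with genotype only, by comparison, *Aif1* alone of the 10 members was called lower, with its interval inside 1.5-fold.

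Relatives of the members by family were also measured, with 22 of 26 tested, 9 higher, 7 lower and a median of 0.06. Of all genes tested, 21.5% were higher and 21.6% lower. With the date as a term, 2 relatives were higher (*Adgre4* and *Ptpre*) and 3 lower, *Flt3* among them. *Adgre4*, a sister gene of *Adgre1*, rose by 0.82 (SE 0.08, adjusted p = 3.78e-05) where *Adgre1* had no called change. *Flt3*, which encodes a receptor tyrosine kinase related to CSF1R and made in progenitors and dendritic cells, fell by 1.68 on the log2 scale (SE 0.22, adjusted p = 0.000169). *Lamp1*, a lysosomal relative of *Cd68* and the most abundant of them, had a change of -0.05 (SE 0.06, adjusted p = 0.497).

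**Figure D4:**
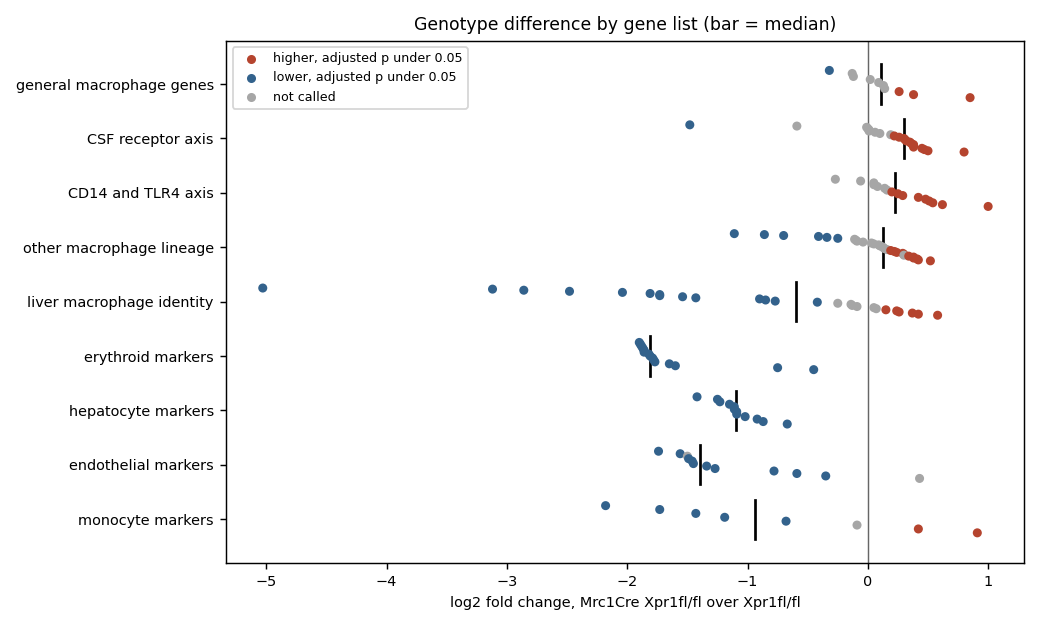
Log2 fold change (x axis, *Mrc1Cre Xpr1fl/fl* over *Xpr1fl/fl*) of each gene tested in 9 lists (y axis), with 1 point a gene and a bar at the median of the list. Red points were called higher, blue points lower and grey points neither at an adjusted p of 0.05. The general macrophage genes centre near 0 (median 0.11), the identity list extends furthest to the left, and erythroid and hepatocyte markers lie wholly left of 0.

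Markers of other cells that a sort of FL macrophages can carry were mostly lower in *Mrc1Cre Xpr1fl/fl*. Of all genes tested, 21.6% were called lower and 21.5% higher. All 15 erythroid markers tested fell, with a median of -1.81, and *Mrc1Cre Xpr1fl/fl* sample 5 had the highest sum of its genotype, 1.14%. All 12 hepatocyte markers fell, with a median of -1.10 and sums of 0.126% to 0.164% of the normalized counts in *Mrc1Cre Xpr1fl/fl* and 0.223% to 0.37% in the controls. Of 12 endothelial markers 10 fell (median -1.39, sums of 0.024% to 0.0315% and 0.0416% to 0.0557%). The most abundant gene was *Trf* among the hepatocyte markers (control mean 35179.7) and *Stab2* among the endothelial markers (8125.1). These 2 genes weigh most in the sums, and the cell type that made their transcripts was not tested. Of 8 monocyte markers 5 fell and 2 rose (median -0.94, sums of 0.0365% to 0.0483% and 0.0272% to 0.0414%), the riser with the largest change being *Plac8* (0.91, SE 0.13, adjusted p = 0.000292), which was not called with the date as a term (0.65, adjusted p = 0.0749). Of 10 neutrophil and progenitor markers 4 fell (median -1.42, sums of 0.0203% to 0.0667% and 0.0344% to 0.2%). Of 8 megakaryocyte markers 5 fell (median -1.45, sums of 0.00269% to 0.00405% and 0.00865% to 0.0101%), and of 7 lymphoid and mast cell markers 5 fell and 1 rose (median -1.33, sums of 0.00619% to 0.00724% and 0.00568% to 0.00799%). A fit with the date as a term called lower 3 erythroid (median -0.95), 2 hepatocyte (median -0.57), 3 endothelial and 2 monocyte markers. It also called lower 4 neutrophil and progenitor, 1 megakaryocyte and 4 lymphoid and mast cell markers, where 4.54% of all genes were lower. At an unadjusted p of 0.05, that fit had 14 erythroid, 6 hepatocyte, 8 endothelial and 4 monocyte markers lower. It also had 5 neutrophil and progenitor, 1 megakaryocyte and 4 lymphoid and mast cell markers lower, against 13.1% of all genes. Limma with the date called 0 of these markers higher, and 1 (*Plac8*) at an unadjusted p of 0.05. In these lists 1 marker, the megakaryocyte gene *Gp1bb*, was listed at 0 in a sample (*Mrc1Cre Xpr1fl/fl* sample 4), and all others were above 0 in every sample. For comparison, the 10 members summed to 0.793% to 0.857% of the normalized counts in *Mrc1Cre Xpr1fl/fl* and 0.737% to 0.814% in the controls, so that their joint share overlapped between the genotypes. In bulk samples, fewer cells of a type and less RNA per cell cannot be told apart, and the part of these markers in the changes of the members was not tested.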

How the data were processed

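Libraries, each from 45 ng of RNA and read from both ends, were checked with FastQC, quantified with salmon on a GRCm39 index, imported with tximport and analysed with DESeq2 by the authors, whose tool versions are not given in the sources used here. The deposited table gives 1 signal value a gene and sample, namely counts divided by the authors' normalization. Of values under 10, 26.5% to 49.7% lay within 0.05 of a whole multiple of the best of many spacings tried. Chance gives 10% for a fixed spacing and more for the best of many. Whole reads could thus not be recovered, so no count test was run and depth stays relative. The lowest gene mean in the table was 5.79. All columns were mapped to samples, with 0 left over. Symbols and coordinates came from GENCODE mouse release M39, which named 13698 of 13708 genes.

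The genotype comparison used limma 3.58.1 (R 4.3.3, lmFit followed by trended eBayes) after adding 1 to each value and taking log2, which understates fold changes of low genes. A gene was tested where 4 or more samples reached 10 normalized counts. On simulated data with 13708 genes, limma recovered 97 of 97 genes changed by 2 on the log2 scale and 94 of 97 changed by 1, and called 10 unchanged genes. The simulation gave all genes the same dispersion and held no date effect. It checks that the fit runs correctly and does not measure its error rate in these samples. Ratios were tested by two-sided exact permutation (scipy 1.17.1), and plots were drawn with matplotlib 3.10.9. Sample pairs correlated at 0.947 to 0.986. Alternatives were other pseudocounts, filters, scalings and limma settings, the date as a term, a block for the replicate number, and fits that leave out samples. The sum of *Csf2rb* and *Csf2rb2* and the fit without a pair of samples were added after the data were seen.

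The members, gene lists and tests were chosen with earlier results of these data known. Named were the 10 members, *Xpr1*, *Vsig4*, *Clec4f*, *Timd4*, *Cdh5*, *Csf2rb2*, the ligands and co-receptors *Csf1*, *Tlr4* and *Ly96*, and from each list the most abundant gene and those with the highest and lowest change. Other genes were named after their values were seen, for small counts, or for shared sequence (*Hmgxb3* and *St13*).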

Additional observations from a re-analysis of the deposited data

Results flagged for a closer look

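Of 98 groups of 4 or 5 samples (49 named genes in both genotypes), 7 held a sample whose gap to its nearest neighbour was large for the range of the group, where chance flags about 4.9. Among the general macrophage genes, *Cd68* stood at 14590.4 normalized counts in *Mrc1Cre Xpr1fl/fl* sample 5, against 12892.7 to 13042.6 in the other 4, and *Csf2rb* at 9713.3 in control sample 1, against 11632.0 to 12014.6. In sample 5, *Tlr4* was at 6044.4 (others 7312.1 to 7774.5), the hemoglobin gene *Hba-a1* at 85791.2 (others 25797.6 to 43152.1) and the neutrophil gene *S100a9* at 4994.6 (others 907.5 to 1786.8). Among the controls, the transferrin receptor gene *Tfrc* was at 19327.2 in sample 4 (others 14846.5 to 15204.2), and the transferrin gene *Trf* at 27161.3 in sample 2 (others 36806.6 to 38737.5). Sample 5 thus gave 4 of the 7 values, and it is the *Mrc1Cre Xpr1fl/fl* sample that shares its column date with controls.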

How the results depend on the processing

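Most results kept their direction and their side of the threshold under other pseudocounts, filters, eBayes settings and array weights. The date as a term changed the most. It left 1 general macrophage gene higher and 0 lower, 4 genes of the CSF receptor axis higher and 0 lower, 4 of the CD14 and TLR4 axis higher, 3 of the other lineage genes higher and 3 lower, and 2 identity genes higher and 9 lower, and it turned the sign of *Csf1r* (-0.02), *Cd68* (0.04), *Csf2ra* (0.14) and *Kdr* (-0.26). Quantile normalization gave 2 members lower (*Csf2ra* added), 1 gene of the CD14 and TLR4 axis lower, and a sign change of *Lamp1* (0.06). Scaling to the 75th percentile gave 1 gene of that axis lower, 3 identity genes higher and -0.06 for *Adgre1*.

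With the replicate number as a block, 2 members (*Aif1* and *Csf2ra*) were lower, and 2 genes of the CSF receptor axis and 1 of the CD14 and TLR4 axis were lower, with 4 members higher (*Csf1r* added). Same-numbered samples deviated together in 1 of 4 pairs only (correlations of -0.033, 0.147, -0.011 and -0.031), so the numbers do not pair the samples. Of the 4, 1 correlated best with its own number.

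Leaving out 1 sample at a time gave 1 to 2 members lower (*Csf2ra* without *Mrc1Cre Xpr1fl/fl* sample 5, *Cd68* without control 2), 3 to 6 identity genes higher and changes of *Adgre1* from -0.02 to 0.09 and of *Cd14* from 0.04 to 0.25. Without both *Mrc1Cre Xpr1fl/fl* sample 5 and control sample 4, 3 identity genes were higher, 1 gene of the CD14 and TLR4 axis was lower, *Cd14* changed by -0.04 and *Adgre1* by 0.10. For quantile normalization, the replicate block and the fits that leave out samples, the share of all genes called is not given here. The counts of genes called under those fits therefore carry no comparison with other genes. The depth of the samples is not known, so no floor or counting interval is given, and the date cannot be told apart from the genotype for 5 of the 9 samples. The cause of these changes was not tested.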
